A study of Mus musculus with 12 samples.

Results

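ABC transporters are membrane proteins that use ATP to move lipids, sterols, drugs, conjugated hormones, metals and peptides across membranes. The genes described here are the 47 of 52459 symbols in the table that begin with Abc, go on with a subfamily letter from a to g and a number, and may end in a or b. A further 3 ABC genes with symbols of that form, Abca1, Abcg1 and Abcc9, were left to other gene groups. All sums, shares and ranks below are without them. The rule uses the symbols and no expression value. They were measured in whole choroid plexus of B6 mice at E12.5 (embryonic, in days), at P0 and P14 (postnatal, in days) and at A6m (6 months), with 3 libraries per age. The labels describe the specimens as independent and give no sex, ventricle, pooling or sequencing batch. All animals of the 4 ages were of the same strain, with no allele or treatment named.

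The choroid plexus is the epithelium and stroma in the brain ventricles that makes cerebrospinal fluid and forms the barrier between blood and that fluid. In its epithelium, multidrug resistance proteins of subfamily C on the blood-facing side are known for sending drugs, glutathione conjugates and conjugated steroids back to blood. Subfamilies A and G mostly move lipids and sterols, the organelle members of subfamily B serve mitochondria and lysosomes, and subfamily D carries fatty acyl-CoA into peroxisomes. The subfamilies E and F have the ATP-binding domains but cross no membrane, and act in ribosome recycling and translation.

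The 12 libraries held 13614 to 16994 genes at 1 TPM or more (transcript abundance relative to a fixed sum per library, a level adjusted for transcript length). Markers of choroid plexus epithelium summed to 12756 to 23515 TPM at E12.5 and to 142451 to 173091 TPM from P0 on, and Ttr alone took 1.12% to 2.10% of TPM at E12.5 and 13.7% to 16.9% later. Each library is set to the same sum. Mitochondrially encoded transcripts took 11.2% to 17.7% of it at E12.5, 19.9% to 22.4% at P0 and 28.7% to 34.0% at P14 and A6m. The median of all 17422 tested genes moved by -0.27 from E12.5 to P0 and by -0.41 from P0 to P14. It moved by -0.04 from P14 to A6m and by -0.71 from E12.5 to A6m, all as differences of log2(TPM + 1). Without the 10 most abundant genes these medians were -0.02, -0.26, -0.06 and -0.33. Each call was therefore also made after median-of-ratios scaling, which puts these medians between -0.02 and 0.00. In E12.5 replicate 1 the small RNA gene Mir6236 took 9.31% of TPM, against 0.816% to 2.05% in the other 11 libraries. The 3 A6m libraries held Xist at 148 to 155 TPM and the P0 and P14 libraries at 0.808 TPM or less. The Y-linked Ddx3y was at 0.122 to 0.366 TPM at A6m and at 80.1 to 117 at P0 and P14. E12.5 replicates 1 and 3 held both Xist (139 and 89.5 TPM) and Ddx3y (9.26 and 50.9 TPM). E12.5 replicate 2 held Xist at 0.389 TPM and Ddx3y at 54.4 TPM. For A6m against P0 or P14, age and these sex-linked transcripts therefore cannot be told apart. A6m also differed from every E12.5 library in Ddx3y, so that comparison is not free of this limit. The P0 libraries held more Ddx3y than every E12.5 library, and less Xist than E12.5 replicates 1 and 3. The comparison of E12.5 with P0 is therefore not free of this limit either.

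Of the 47 ABC genes, 33 passed the filter of 1 TPM in at least 3 libraries and were tested. In a test across the 4 ages 31 of the 33 were called at an adjusted p under 0.05, while 85.1% of all tested genes were called. The exceptions were the lung surfactant lipid transporter Abca3 (adjusted p = 0.504) and the mitochondrial Abcb8 (adjusted p = 0.0750). After scaling 31 of the 33 were called, with 79.8% of all genes. The age with the highest mean was E12.5 for 17 of the 33, P0 for 6, P14 for 2 and A6m for 8. The 14 genes that were not tested were Abca8b, Abca12, Abca13, Abca14, Abca15, Abca16, Abca17, Abcb4, Abcb5, Abcb11, Abcc2, Abcc6, Abcc8 and Abcc12. The highest single value among them was 1.00 TPM, for Abcc6 in 1 E12.5 library. The liver canalicular genes Abcc2, Abcb11 and Abcb4, which export conjugates, bile salts and phospholipid into bile, reached at most 0.336, 0.126 and 0.618 TPM. The sulfonylurea receptor gene Abcc8 reached 0.881 TPM.

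From E12.5 to P0, 11 of the 33 tested ABC genes rose, where 18.6% of all tested genes rose, and 14 fell, where 43.7% of all genes fell. After scaling 14 rose and 11 fell, against 29.0% and 31.0% of all genes. From P0 to P14, 5 rose (5.33% of all genes) and 18 fell (53.5% of all genes). After scaling the order of these counts turned, with 14 higher (22.7%) and 9 lower (19.8%). From P14 to A6m, 7 rose (8.78% of all genes) and 4 fell (12.1% of all genes), and after scaling 9 rose and 4 fell (15.2% and 14% of all genes). From E12.5 to A6m, 10 rose (15.2% of all genes) and 20 fell (62.0% of all genes), and after scaling 13 rose and 12 fell (35.4% and 35.8%). The median difference of the 33 was close to that of all genes in each comparison, at -0.30, -0.30, 0.03 and -0.68 as deposited and at -0.06, 0.10, 0.08 and 0.00 after scaling. Calls held in the same direction on both scales for 22, 14, 11 and 22 genes in these comparisons, and opposite calls were made for Abcf2 from P0 to P14 and for Abcf3 from E12.5 to A6m. The P14 to A6m counts depended on single libraries. Without P14 replicate 2, 4 rose (6.03% of all genes). Without P14 replicate 1, P14 replicate 3 or A6m replicate 3, 2 fell (8.48% to 9.46% of all genes).

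The summed level of the 47 genes was 753 ± 96.0 TPM at E12.5, then 649.6 ± 25.7 at P0, with 590.5 ± 30.5 at P14 and 641 ± 20.0 at A6m (mean ± SD, n = 3, as for every mean below). The ratio of A6m to E12.5 was 0.852 as deposited and 1.55 after scaling, so the sum has no firm direction. What made up that sum differed by age. Within single libraries, subfamily A took 15.7% to 16% of it at E12.5 and 42.0% to 44.2% at A6m. The translation factors of subfamilies E and F took 37.0% to 39.3% at E12.5 and 19.1% to 21.1% at A6m, and the bile and sterol exporters took 11.5% to 14.6% and 0.754% to 0.827%. In the mean sum of that last group, Abcg5 made up 78.0 of 97.0 TPM at E12.5, and Abcg4 made up 3.03 of 5.09 TPM at A6m. A share within a library does not depend on how libraries are scaled.

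**Figure D1:**
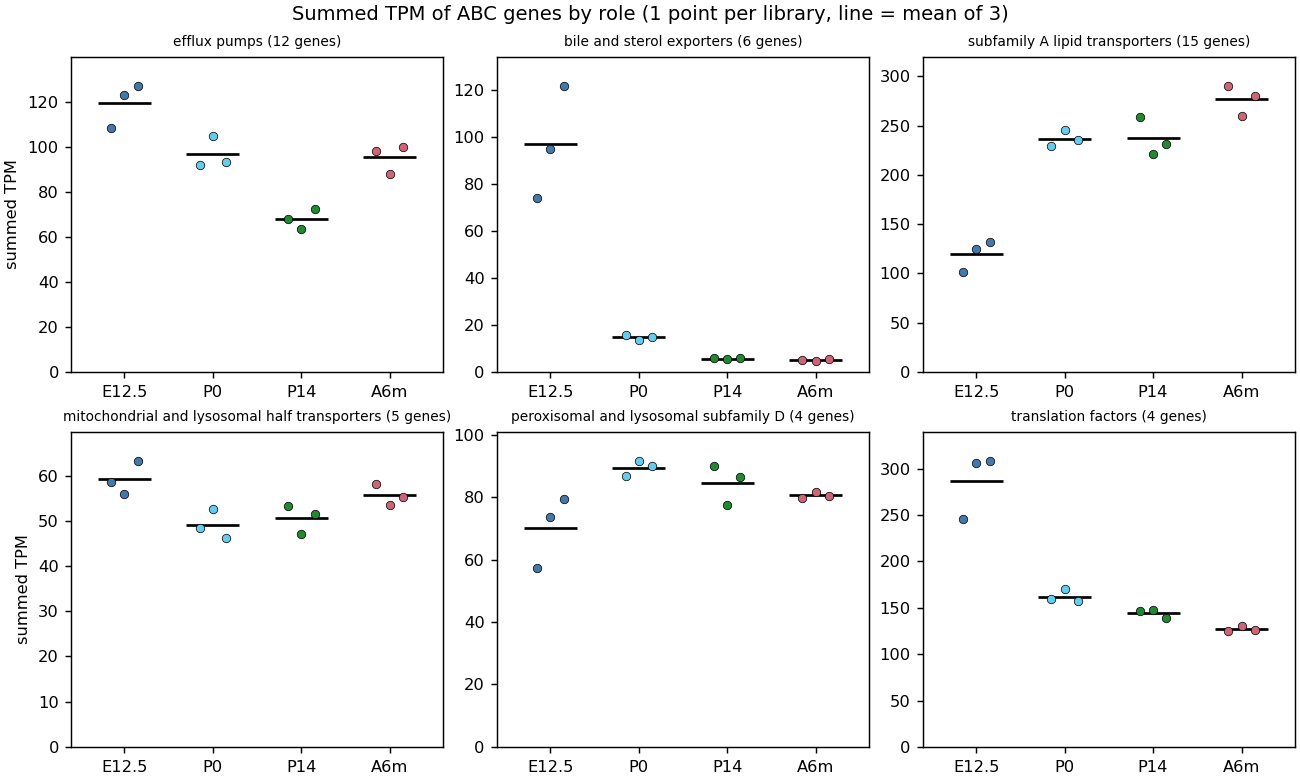
Summed TPM (vertical axis of each panel, starting at 0) of 6 groups of ABC genes at the 4 ages, with 1 point per library and a line at the mean of 3 libraries. Bile and sterol exporters sit at 74.1 to 122 TPM at E12.5 and at 4.66 to 5.35 at A6m, whereas the subfamily A sum goes from 101 to 132 up to 259 to 291.

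The sharpest fall was in Abcg5 and Abcg8, whose proteins pair to export cholesterol and plant sterols from liver and gut cells. The genes lie head to head on chromosome 17. Abcg5 covers chr17:84658234-84683011 on the minus strand, and Abcg8 chr17:84676302-84700333 on the plus strand (GRCm38, GENCODE M21), because 1 of its transcripts starts inside Abcg5. The other RefSeq start of Abcg8, at 84683121, is 110 bp from that of Abcg5, at 84683011. The 109 bases between these starts are shown because both genes fell from E12.5 on (RefSeq, GRCm38.p6, chr17:84683012-84683120, plus strand, from the Abcg5 start to the Abcg8 start). Capitals mark the only match among the 4 motifs searched on both strands (the TATA box TATAAA, the CCAAT box of that spelling, the GC box GGGCGG and the antioxidant response core TGACNNNGC), which is TATAAA read on the minus strand.
Abcg5 to Abcg8: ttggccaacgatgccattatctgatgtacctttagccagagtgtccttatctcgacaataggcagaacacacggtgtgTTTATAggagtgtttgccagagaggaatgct
The match begins 31 bases before the Abcg8 start, on the strand opposite to Abcg8. On the strand of Abcg5 it begins 84 bases before the Abcg5 start. TATAAA is held by 13.6% of the 32851 mouse promoter windows of 300 bases in the RefSeq table.

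Abcg5 was at 58.8, 74.7 and 101 TPM in the E12.5 libraries, at 8.40, 6.60 and 6.79 at P0, at 2.41, 2.66 and 1.94 at P14 and at 1.29, 1.74 and 1.74 at A6m. No age overlapped another. Its mean went from 78.0 ± 21.1 TPM at E12.5, when it was the third most abundant of the 47 ABC genes, to 1.59 ± 0.262 at A6m. On the log2(TPM + 1) scale it fell by 3.23 from E12.5 to P0 (SE 0.18, adjusted p = 1.02e-07) and fell by 1.31 from P0 to P14 (adjusted p = 1.59e-04), and the step from P14 to A6m of -0.36 was not called (adjusted p = 0.190). Over the whole span from E12.5 to A6m it fell by 4.90 (SE 0.18, adjusted p = 1.12e-09; -4.19 after scaling). Abcg8 was lower than Abcg5 in every library, at 7.41, 9.48 and 12.46 TPM at E12.5, at 1.04, 1.08 and 0.966 at P0, at 0.337, 0.514 and 0.383 at P14 and at 0.263, 0.134 and 0.246 at A6m. It fell by 2.38 from E12.5 to P0 (SE 0.16, adjusted p = 3.44e-07) and fell by 3.13 from E12.5 to A6m (adjusted p = 1.19e-08; -2.62 after scaling). The call of Abcg8 from P0 to P14 (-0.52, adjusted p = 0.0148) rests on values near 1 TPM and was lost with a pseudocount of 5 (adjusted p = 0.187). Abcg5 was 7.88 to 8.07 times Abcg8 in the E12.5 libraries and 6.13 to 8.06 times in the P0 libraries, with P0 means at 0.0931 and 0.105 of the E12.5 means. The ratio was 5.06 to 7.17 at P14 and 4.90 to 12.9 at A6m, ages at which Abcg8 was under 1 TPM in every library. The 3 E12.5 libraries had the same order for both genes. The sum of all 47 ABC genes had that order too, at 646, 778 and 833 TPM, so it is not particular to this pair. Whether reads were assigned by strand in this overlapping pair is not given in the sources used here.

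The other tested members of that group fell as well. Abcg4, a sterol exporter known from brain, went from 6.94 ± 1.59 TPM at E12.5 to 3.03 ± 0.444 at A6m (-0.96, adjusted p = 5.39e-04), which was not called after scaling (-0.26). Abcg3, which is listed in this group but for which no substrate is claimed here, went from 1.68 ± 0.0956 to 0.0602 ± 0.0515 TPM (-1.34, adjusted p = 5.80e-07, and -1.04 after scaling). All 4 tested members were thus called lower at A6m than at E12.5 (62.0% of all genes), and 3 of 4 after scaling (35.8% of all genes). Along with this group, markers of red blood cells summed to 55781 to 62834 TPM at E12.5, 6656 to 13506 at P0, 778 to 909 at P14 and 149 to 565 at A6m, with 12 of 12 lower from E12.5 to A6m. Endothelial markers summed to 390.5 to 436 TPM at E12.5 and 23.8 to 38.1 at A6m (10 of 10 lower), fibroblast markers to 1079 to 1426 and 189 to 261 TPM (6 of 7 lower, 1 higher), and markers of dividing cells to 737 to 800 and 10.1 to 13.4 TPM (6 of 6 lower). Their part in the fall of any ABC gene was not tested. In bulk tissue, fewer cells of a type and less RNA per cell cannot be told apart.

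Among the 8 tested efflux pumps, the genes of the organic anion pumps Abcc4 and Abcc1 rose with age. Abcc4 encodes MRP4, which exports cyclic nucleotides, conjugated steroids, prostaglandins and many antiviral and cytotoxic drugs. Its gene lies at chr14:118482692-118706219 on the minus strand. It was at 2.96, 3.66 and 3.69 TPM at E12.5, at 12.51, 13.4 and 12.1 at P0, at 20.1, 17.1 and 16.5 at P14 and at 27.6, 25.1 and 29.0 at A6m. Every step was upward and no neighbouring ages overlapped. The differences were 1.63 (SE 0.10, adjusted p = 2.41e-07), 0.46 (adjusted p = 0.00294) and 0.58 (adjusted p = 0.00227), and from E12.5 to A6m 2.67 (SE 0.10, adjusted p = 1.53e-09), a 7.93-fold rise of the mean TPM. Scaling made the last difference 3.39. Of the 10 epithelial markers (sums above), 9 rose and none fell into P0 as deposited. Into P14 3 rose and 5 fell, and into A6m 3 rose and 2 fell. After scaling 10 rose into P0, 4 rose and 2 fell into P14, and 4 rose and 3 fell into A6m. Their part was not tested.

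Abcc1 encodes MRP1, which exports glutathione conjugates and leukotriene C4. It was at 3.46, 5.04 and 3.94 TPM at E12.5, at 13.4, 15.5 and 14.1 at P0, at 13.1, 13.0 and 13.3 at P14 and at 18.3, 15.8 and 16.9 at A6m. Its main rise was before P0 (1.58, SE 0.11, adjusted p = 5.54e-07), and it was 4.10-fold higher at A6m than at E12.5 (1.82, adjusted p = 5.55e-08). From P0 to P14 it was at -0.11 as deposited (adjusted p = 0.400) and at 0.37 after scaling (adjusted p = 0.00485), so no direction can be given for that step. From P14 to A6m the call was marginal (0.35, adjusted p = 0.0484), and leaving out any one of 10 of the 12 libraries ended it, with adjusted p from 0.0524 to 0.161.

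**Figure D2:**
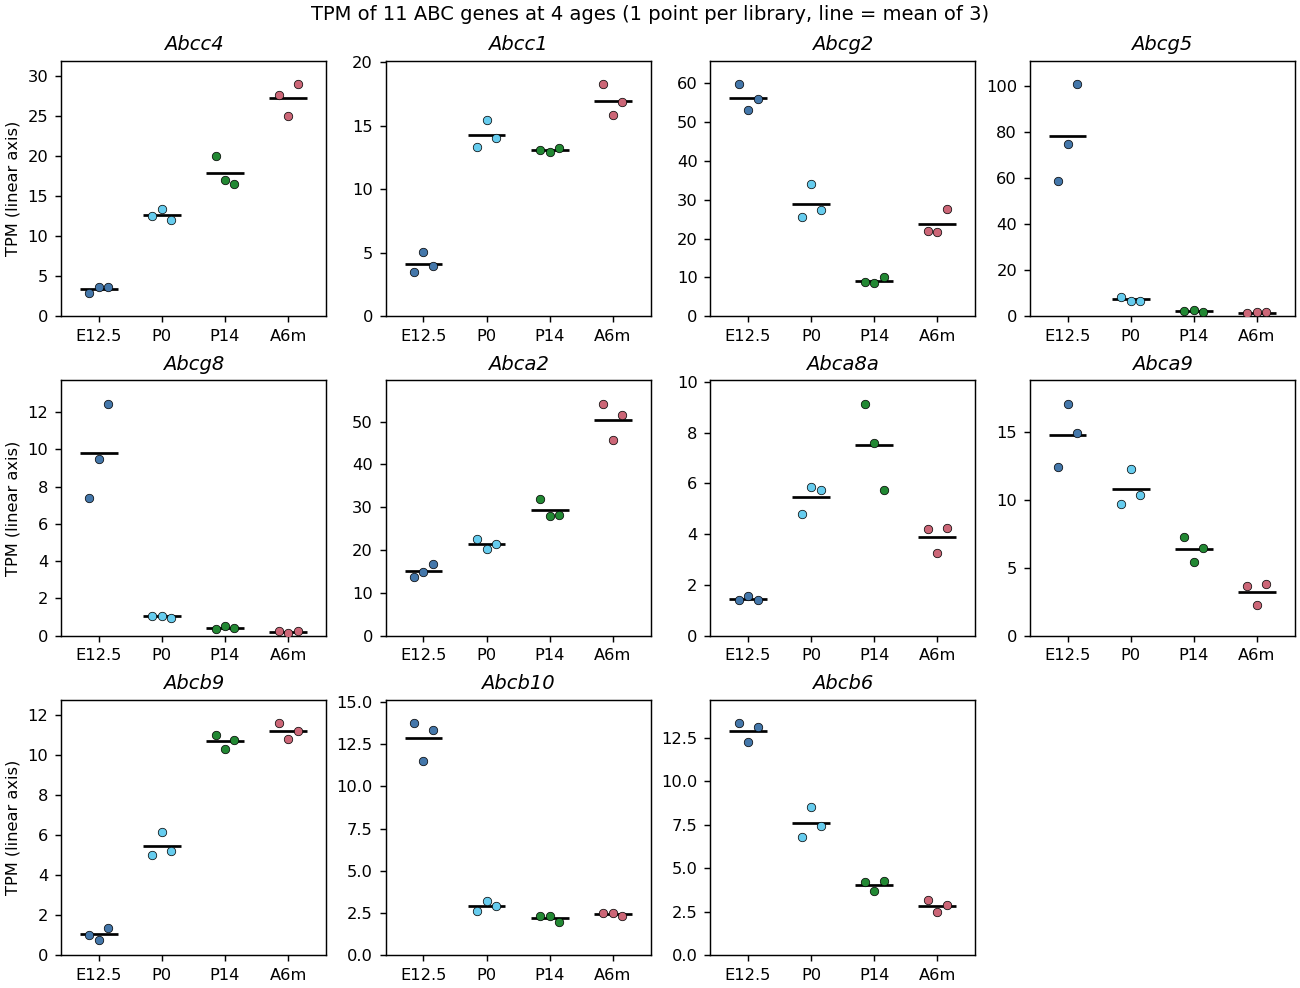
TPM (vertical axis of each panel, linear and starting at 0) of the 11 ABC genes described by library, at E12.5, P0, P14 and A6m, with 1 point per library and a line at the mean of 3. Abcc4 climbs from 2.96 to 3.69 TPM up to 25.1 to 29.0, Abcg5 descends from 58.8 to 101 TPM down to 1.29 to 1.74, and Abcg2 is lowest at P14 with 8.63 to 10.1.

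Abcg2, the breast cancer resistance protein that exports urate, porphyrins and many drugs, had another course. It was at 59.8, 53.1 and 56.0 TPM at E12.5, at 25.6, 33.9 and 27.3 at P0, at 8.79, 8.63 and 10.1 at P14 and at 21.8, 21.6 and 27.6 at A6m. The P14 libraries were the lowest and overlapped no other age. Abcg2 fell by 0.94 from E12.5 to P0 (SE 0.12, adjusted p = 5.22e-05) and fell by 1.55 from P0 to P14 (adjusted p = 5.29e-06), and rose by 1.27 from P14 to A6m (adjusted p = 4.33e-05), a 2.58-fold rise of the mean. The 3 steps kept their calls after scaling, at -0.66, -1.07 and 1.34. At A6m it was still lower than at E12.5, by -1.22 as deposited (adjusted p = 3.11e-06) and by -0.39 after scaling (adjusted p = 0.0246). Abcg2 is expressed in endothelium, red blood cell precursors and epithelium. Of the 10 endothelial markers, 9 fell into P0, 10 into P14 and 10 into A6m, and none rose. Their sum was 216 to 292 TPM at P0, 84.6 to 115 at P14 and 23.8 to 38.1 at A6m. Of the 12 red blood cell markers, 11 fell and 1 rose into P0, 8 fell into P14 and 5 into A6m. The epithelial counts are given with Abcc4. The part of these cells in the course of Abcg2 was not tested.

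Abcc5, an exporter of cyclic nucleotides, was at 47.0 ± 11.3 TPM at E12.5 and 23.2 ± 2.22 at A6m (-0.96, adjusted p = 2.26e-04), a fall that was not called after scaling (-0.13, adjusted p = 0.285). The ratio of Abcc4 to Abcc5 within a library does not depend on the scaling, and went from 0.0748 ± 0.0107 at E12.5 over 0.421 ± 0.0132 and 0.800 ± 0.162 to 1.18 ± 0.132 at A6m. Abcc3, which exports glucuronides, went from 1.34 ± 0.405 to 0.255 ± 0.0367 TPM (-0.88, adjusted p = 2.20e-04; -0.54 after scaling). Abcc10 stayed between 1.57 and 4.24 TPM, with its highest mean of 3.85 ± 0.418 at P0.

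Both mouse genes of P-glycoprotein, the drug pump of brain capillaries, were low. Abcb1a was at 2.62 ± 0.282 TPM at E12.5, then 4.46 ± 0.254 at P0, with 1.89 ± 0.500 at P14 and 1.66 ± 0.186 at A6m, with a rise of 0.59 into P0 (adjusted p = 0.00244) and a difference of -0.93 into P14 (adjusted p = 2.04e-04), both also called after scaling. Abcb1b was at 1.08 ± 0.382, 1.17 ± 0.306, 0.298 ± 0.163 and 0.265 ± 0.0672 TPM. The pair shares sequence, since 21.7% of the 31-base words of Abcb1a transcripts also occur in those of Abcb1b, so the split of reads between them is uncertain. Markers of barrier-forming endothelium, the cells best known for Abcb1a, had their highest sum at P0 (399 to 442 TPM, against 202 to 242 at E12.5, 314 to 364 at P14 and 173 to 192 at A6m). Slco1a4, also a gene of drug uptake, made up 218 TPM on average at P0 and 6.77 at E12.5. The sum averaged 419 TPM at P0 and 222 at E12.5, so without Slco1a4 it did not rise into P0. Of these 7 markers 4 rose and 1 fell into P0. Their part was not tested. At A6m the levels per transcript length of the drug pumps were in the order Abcc4, Abcg2, Abcc5, Abcc1, Abcc10, Abcb1a. The libraries of Abcg2 and Abcc5 overlapped, as did those of Abcc10 and Abcb1a and those of Abcc4 with both Abcg2 and Abcc5.

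To show the promoters of the genes that rose most from E12.5 to A6m, the bases just before the RefSeq starts of Abcc4 and of Abcb9 (described next) are given 5′ to 3′ on the strand of each gene (GRCm38.p6, minus strand for both). The windows are chr14:118706220-118706469 and chr5:124095799-124096048. Capitals mark matches to GGGCGG (the GC box) on either strand, and in Abcc4 also TGACNNNGC (the core of the antioxidant response element), which abuts a GC box in the last run of capitals.
Abcc4: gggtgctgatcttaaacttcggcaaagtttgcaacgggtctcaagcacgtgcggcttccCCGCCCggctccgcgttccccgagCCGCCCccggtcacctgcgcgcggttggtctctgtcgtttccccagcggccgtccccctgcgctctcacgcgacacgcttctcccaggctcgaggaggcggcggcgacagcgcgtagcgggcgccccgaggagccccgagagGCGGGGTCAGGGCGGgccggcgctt
Abcb9: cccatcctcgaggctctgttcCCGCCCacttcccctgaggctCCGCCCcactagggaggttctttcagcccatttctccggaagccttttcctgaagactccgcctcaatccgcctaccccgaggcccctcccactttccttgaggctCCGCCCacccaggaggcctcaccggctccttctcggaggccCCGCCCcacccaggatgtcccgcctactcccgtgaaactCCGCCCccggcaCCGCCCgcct
Abcc4 has 35 CpG and 3 GC boxes in these 250 bases, and Abcb9 has 17 CpG and 6 GC boxes. The table holds another start of Abcc4, at 118676931 inside the gene, whose window of 300 bases has 6 CpG, no GC box and 47.3% G and C, against 41 CpG and 72.7% in the window of 300 bases at the start shown. Which start was used in these libraries was not tested. In windows of 300 bases, a GC box was held by 35.7% of all 32851 promoters and by 19 of 43 windows (44.2%) of the 36 ABC genes found in the RefSeq table, and the antioxidant response core by 12.4% and by 7 of 43 (16.3%). CCAAT was held by 37.4% of all and by 16 of 43 (37.2%).

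The organelle transporters of subfamily B split. Abcb9 encodes TAPL, a lysosomal peptide transporter. It was at 0.980, 0.755 and 1.34 TPM at E12.5, at 4.97, 6.13 and 5.19 at P0, at 11.0, 10.3 and 10.7 at P14 and at 11.6, 10.8 and 11.2 at A6m. It rose by 1.67 into P0 (SE 0.12, adjusted p = 4.81e-07) and by 0.86 into P14 (adjusted p = 1.38e-04), after which the libraries of P14 and A6m overlapped (0.06, adjusted p = 0.768). Its mean was 10.9-fold higher at A6m than at E12.5 (2.60, adjusted p = 4.60e-09; 3.16 after scaling).

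Abcb10 and Abcb6, whose proteins are linked to heme synthesis and mitochondria, fell. Abcb10 was at 13.8, 11.5 and 13.4 TPM at E12.5, at 2.60, 3.18 and 2.90 at P0, at 2.28, 2.34 and 1.98 at P14 and at 2.49, 2.47 and 2.34 at A6m. Nearly all of its fall lay between E12.5 and P0 (-1.83, SE 0.10, adjusted p = 1.13e-07; -1.53 after scaling). From P0 to P14 its difference of -0.28 (adjusted p = 0.0355) turned to 0.087 after scaling. That call was also lost when P0 replicate 2, P0 replicate 3 or any P14 library was left out (adjusted p from 0.0508 to 0.121). Abcb6 was at 13.4, 12.3 and 13.1 TPM at E12.5, at 6.78, 8.50 and 7.43 at P0, at 4.18, 3.67 and 4.24 at P14 and at 3.15, 2.46 and 2.89 at A6m. Its steps were -0.70, -0.77 and -0.39 (adjusted p = 1.63e-04, 1.69e-04 and 0.0228), all called after scaling too, and no ages overlapped. The call of its last step was lost without P14 replicate 1, P14 replicate 3, A6m replicate 2 or A6m replicate 3, with differences of -0.41 to -0.32 and adjusted p from 0.0566 to 0.0866. Abcb10 fell by 2.01 and Abcb6 fell by 1.86 from E12.5 to A6m (-1.30 and -1.14 after scaling). Both genes are known from red blood cell precursors, whose marker sums are given above, and 12 of 12 of those markers fell from E12.5 to A6m. Slc25a37, the mitochondrial iron importer that works with Abcb10 in those cells, went from 71.2 TPM at E12.5 to 7.19 at P0 and 5.82 at A6m (-3.41 from E12.5 to A6m, called on both scales). The part of red blood cell precursors was not tested.

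Abcb8 was within 14.1 to 20.1 TPM in every library, and its difference from E12.5 to A6m of 0.05 as deposited was 0.85 after scaling (adjusted p = 1.02e-05). The annotation places a second gene model, Gm29253, over Abcb6, with 52.1% of the 31-base words of Abcb6 transcripts in common. Gm29253 was at 0.0547 TPM or less on average at each age. Abcb10 shares 9.12% of its words with Gm45890, which was at 0.742 to 2.72 TPM on average.

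Subfamily A was the group with the most genes higher at A6m. Between E12.5 and A6m, 5 of its 8 tested members rose and 1 fell (15.2% and 62.0% of all genes), and after scaling 6 rose and 1 fell (35.4% and 35.8% of all genes). Abca4, best known as the retinoid lipid importer of photoreceptors, was the most abundant of the 47 ABC genes from P0 on. It was at 53.1, 64.8 and 72.5 TPM at E12.5 and at 143 to 173 TPM in the 9 later libraries. Its rise of 1.33 into P0 (SE 0.11, adjusted p = 1.36e-06) was followed by -0.05 and 0.10 as deposited, neither called, and by 0.46 and 0.15 after scaling, both called (adjusted p = 3.99e-05 and 0.0412).

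Abca2, a transporter of endosomes and lysosomes that is abundant in myelin-forming cells, rose at every step. It was at 13.7, 14.8 and 16.7 TPM at E12.5, at 22.6, 20.3 and 21.4 at P0, at 32.0, 27.9 and 28.1 at P14 and at 54.2, 45.6 and 51.5 at A6m. No ages overlapped. The steps were 0.48, 0.44 and 0.76 (adjusted p = 9.56e-04, 0.00240 and 2.39e-04), and the mean was 3.35-fold higher at A6m than at E12.5 (1.68, SE 0.09, adjusted p = 2.59e-08; 2.49 after scaling). The 6 oligodendrocyte markers summed to 22.6 to 26.0 TPM at E12.5, 19.4 to 23.4 at P0, 39.7 to 77.8 at P14 and 26.6 to 32.3 at A6m. Of the 5 of them that were tested, 3 rose into P14 and 3 fell into A6m. Their part was not tested.

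Abca7, a phospholipid transporter, went from 3.29 ± 0.328 to 9.39 ± 0.759 TPM between E12.5 and A6m (1.28, adjusted p = 4.74e-07), with its largest step after P14 (0.70, adjusted p = 6.82e-04). Abca3 was within 7.42 to 10.5 TPM in every library, with a difference of -0.07 from E12.5 to A6m as deposited (adjusted p = 0.575) and of 0.69 after scaling (adjusted p = 1.45e-05). Abca17, whose start lies head to head with that of Abca3 at a distance of 964 bp, was listed at 0.0485 TPM or less in every library.

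The 5 genes Abca8b, Abca8a, Abca9, Abca6 and Abca5 stand side by side on the minus strand of chromosome 11, within 405.5 kb (chr11:109932190-110337716), and they did not move as 1 unit. Abca8a was at 1.41, 1.56 and 1.40 TPM at E12.5, at 4.79, 5.85 and 5.76 at P0, at 9.15, 7.61 and 5.74 at P14 and at 4.20, 3.24 and 4.26 at A6m. It rose by 1.39 into P0 (SE 0.15, adjusted p = 1.49e-05) and fell by 0.78 from P14 to A6m (adjusted p = 0.00435), both also after scaling. Between P0 and P14 its libraries overlapped and the difference of 0.38 missed the threshold (adjusted p = 0.0525), while without P14 replicate 3 it was 0.54 (adjusted p = 0.0105) and after scaling 0.83 (adjusted p = 0.00111).

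Its neighbour Abca9 was highest at E12.5. It was at 12.4, 17.1 and 14.9 TPM at E12.5, at 9.67, 12.2 and 10.4 at P0, at 7.25, 5.42 and 6.44 at P14 and at 3.65, 2.22 and 3.80 at A6m. It fell by 1.92 from E12.5 to A6m (SE 0.17, adjusted p = 1.38e-06; -1.18 after scaling) and fell by 0.82 from P14 to A6m (adjusted p = 0.00689; -0.81 after scaling). Its difference of -0.42 into P0 was not called (adjusted p = 0.0551, and 0.0286 without E12.5 replicate 1), and its difference of -0.68 from P0 to P14 (adjusted p = 0.00664) was not called after scaling (-0.22). Abca6 peaked at P0 with 1.52, 2.09 and 2.06 TPM and was at 0.170 to 0.526 TPM in the libraries of the other ages. It rose by 1.05 into P0 and fell by 1.00 into P14, steps that were called on both scales (adjusted p = 3.49e-05 and 1.07e-04 as deposited). Abca5, at the far end of the row, went from 11.1 ± 2.35 TPM at E12.5 to 23.7 ± 0.613, 24.8 ± 1.22 and 35.2 ± 0.684 (1.60 from E12.5 to A6m, adjusted p = 2.72e-07). Abca8b stayed between 0.372 and 0.786 TPM. Beside the falls of Abca9, fibroblast markers summed to 1079 to 1426, 601 to 623, 285 to 332 and 189 to 261 TPM at the 4 ages, and mural cell markers to 157 to 239, 98.3 to 117, 79.4 to 112 and 14.8 to 25.2 TPM (7 of 8 lower from E12.5 to A6m). Their part was not tested.

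**Figure D3:**
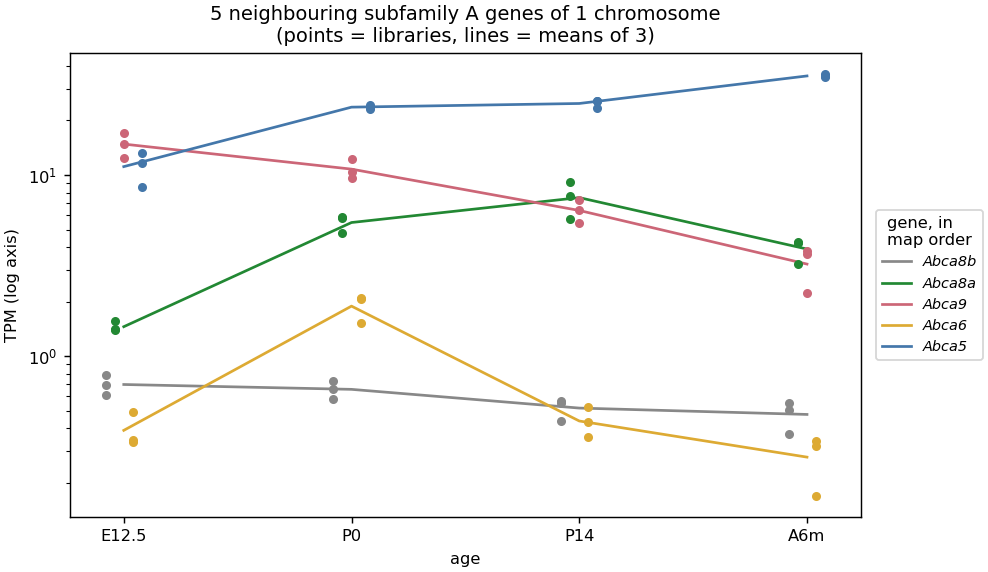
TPM (vertical axis, log scale) of the 5 neighbouring subfamily A genes of chromosome 11 at the 4 ages, with points for libraries and lines through the means of 3. Abca5 rises from 11.1 to 35.2 TPM on average, Abca9 falls from 14.8 to 3.22, and Abca6 peaks at P0 with 1.89.

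Promoter sequence of both ends of this contrast is shown for Abca5, which rose, and Abca9, which fell (RefSeq, GRCm38.p6, minus strand, 5′ to 3′, ending before the first annotated base of each gene in GENCODE M21). The windows are chr11:110337717-110337966 and chr11:110168197-110168403. Capitals mark GC boxes on either strand.
Abca5: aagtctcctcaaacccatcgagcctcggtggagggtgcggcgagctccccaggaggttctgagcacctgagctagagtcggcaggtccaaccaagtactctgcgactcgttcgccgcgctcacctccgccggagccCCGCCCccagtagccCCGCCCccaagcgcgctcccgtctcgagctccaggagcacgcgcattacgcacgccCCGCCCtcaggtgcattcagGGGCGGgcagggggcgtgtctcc
Abca9: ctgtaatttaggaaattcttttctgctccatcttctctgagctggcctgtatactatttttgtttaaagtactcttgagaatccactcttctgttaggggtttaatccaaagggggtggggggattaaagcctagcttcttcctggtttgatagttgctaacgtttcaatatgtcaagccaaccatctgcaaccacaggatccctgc
Abca5 has 69.2% G and C, 25 CpG and 4 GC boxes, whereas Abca9 has 42.5% G and C, 1 CpG and none of the 4 motifs in this window.

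Subfamily D also held genes with opposite courses. Abcd2, a peroxisomal importer of very long chain fatty acyl-CoA, went from 2.59 ± 0.763 to 0.339 ± 0.0200 TPM (-1.40, adjusted p = 6.30e-06; -0.97 after scaling). Abcd3, the major peroxisomal membrane protein that takes up branched-chain and bile acid precursors, went the opposite way, from 47.9 ± 10.2 TPM at E12.5 to 74.7 ± 2.14 at P0, 77.2 ± 5.99 at P14 and 74.2 ± 1.69 at A6m. It rose by 0.65 into P0 (adjusted p = 0.00107; 0.93 after scaling). Abcd4, which works in lysosomal vitamin B12 release, went from 5.54 ± 0.456 to 3.09 ± 0.518 TPM (-0.68, adjusted p = 3.65e-04), a call that was lost after scaling (0.00). Its partner Lmbrd1, by contrast, went from 50.9 TPM at E12.5 to 148 at A6m, called higher on both scales.

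The members that are no transporters made up the largest summed level at E12.5. Abce1, the ribosome recycling factor, was at 116 ± 9.45 TPM at E12.5, then 63.2 ± 3.09 at P0, with 61.0 ± 2.23 at P14 and 50.2 ± 1.12 at A6m. It fell by 0.87 into P0 (SE 0.07, adjusted p = 1.32e-06; -0.58 after scaling) and fell by 1.19 from E12.5 to A6m (adjusted p = 3.42e-08; -0.35 after scaling). Abcf1, which binds the initiation factor eIF2, went from 94.7 ± 18.7 to 32.2 ± 3.45 TPM (-1.51, adjusted p = 9.50e-06; -0.67 after scaling). All 4 fell into P0 as deposited (43.7% of all genes), and 3 of 4 after scaling (31.0% of all genes). Abcf2 and Abcf3 were lower at A6m than at E12.5 as deposited (-0.87 and -0.59), but after scaling Abcf2 was at -0.04 and not called, and Abcf3 was higher at 0.24 (adjusted p = 0.0236). Markers of dividing cells, given above, fell over the same ages, and their part was not tested.

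**Figure D4:**
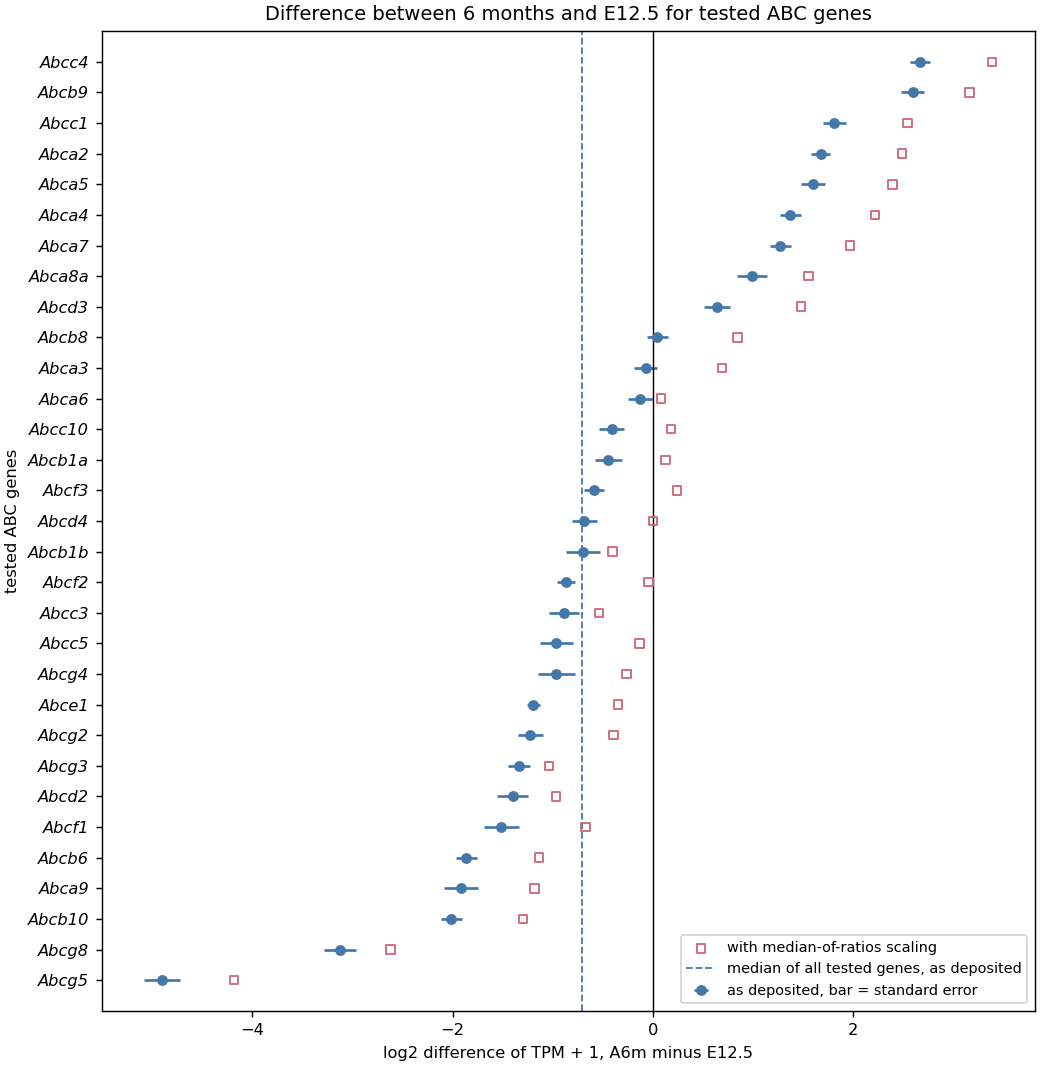
Difference in log2(TPM + 1) between A6m and E12.5 (horizontal axis) for 31 of the 33 tested ABC genes, as deposited (filled points, bars for the standard error) and after median-of-ratios scaling (open squares), with a dashed line at the deposited median of all tested genes. Abcc4 and Abcb9 are highest and Abcg5 and Abcg8 lowest on both scales. Abcf2 goes from -0.87 to -0.04 with scaling, and Abcb1b from -0.70 to -0.40.

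Other genes of the pathway were taken from lists written by function. Of 18 tested nuclear receptors and stress factors that are known to regulate ABC genes, 6 rose and 8 fell from E12.5 to A6m as deposited, and 10 rose and 6 fell after scaling (shares of all genes as for subfamily A). Those with the largest differences were the xenobiotic receptor gene Ahr, from 15.4 to 1.05 TPM (-2.99), Trp53, from 55.6 to 9.66 TPM (-2.40), the fatty acid receptor gene Ppara, from 1.17 to 4.29 TPM (1.28), and Arnt, the partner of Ahr, from 35.0 to 14.9 TPM (-1.17), each called in that direction on both scales. Of 16 tested genes for partner proteins of ABC members, 3 rose and 10 fell (15.2% and 62.0% of all genes). After scaling 8 rose and 5 fell (35.4% and 35.8% of all genes). Of 20 tested genes for drug uptake and metabolism, 11 rose and 6 fell, and after scaling 16 rose and 3 fell, against the same shares of all genes. Among them, the epoxide hydrolase gene Ephx1 went from 6.47 to 252 TPM, the organic anion carrier gene Slco1a4 from 6.77 to 123, the sulfotransferase gene Sult1a1 from 1.53 to 23.1, and the organic anion carrier gene Slc22a8 from 1.75 to 15.9. ABC genes that go by other symbols moved as well: Tap2, of the peptide loading complex, went from 1.24 ± 0.417 to 14.8 ± 2.19 TPM (2.83, adjusted p = 5.56e-08), Tap1 from 2.04 ± 0.678 to 6.00 ± 1.35 (1.21, adjusted p = 2.11e-04), and the chloride channel gene Cftr from 2.10 to 0.00344 TPM.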

How the data were processed

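RNA was sequenced from choroid plexus as 100 bp paired ends after a Kapa mRNA HyperPrep preparation, per the labels' protocols. The authors deposited TPM values per gene symbol, and the submitters' processing notes name kallisto and GRCm38, without a version. The step from transcripts to genes is not given in the sources used here. TPM holds no read counts, so depth is unknown, and no interval, floor or count model was applied.

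Here 12 columns were mapped to ages by title, and 7 other columns were not used. Values became log2(TPM + 1). Genes with TPM of at least 1 in at least 3 libraries (17422) were fitted with limma 3.58.1 in R 4.3.3 (eBayes with trend, 4 age means, 8 residual degrees of freedom). Every adjusted p is limma's with Benjamini-Hochberg adjustment over all tested genes, called under 0.05. Each p-value sets differences between age means against the spread of libraries within ages. That spread is pooled over the 12 libraries and moderated by a trend across genes. The script was tested on simulated data. Values of single libraries are given for called members with a mean of at least 5 TPM at any age and a highest age mean plus 1 at least 3 times the lowest plus 1 (12 genes, of which 11 are given). The others are given by mean or range. From other lists, at most 4 called genes with the largest differences are named. The members and lists were chosen with earlier results of these data known, and 2 members are counted in the totals but not reported here by name.

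The alternatives tried were: pseudocount 0.1 or 5, all genes unfiltered, only genes averaging 5 TPM or more, scaling by median-of-ratios factors (19075 genes), quantile normalization, leaving out the 10 most abundant genes, a fit of only the 2 ages compared, array quality weights, a replicate block and leaving out each library. Coordinates and shared 31-base words come from GENCODE M21 (GRCm38), in which all 47 symbols were found, and promoters from RefSeq (GRCm38.p6), with 36 of 47 matched.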

Additional observations from a re-analysis of the deposited data

How the results depend on the processing

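For the 12 genes that met the rule for values by library, 997 of 1048 differences under the alternatives kept direction and call, 33 lost a call, 13 gained one and 5 changed sign, none of them from E12.5 to A6m. The sign changes were Abcb10 from P0 to P14 (0.087 with scaling, 0.28 with quantile normalization) and Abcc1 from P0 to P14 (0.37 with scaling, 0.33 with quantile normalization, 0.080 without the 10 most abundant genes). With scaling and without the 10 most abundant genes, the ratio of summed TPM at A6m to E12.5 went from 0.797 to 1.44 and 1.12 for efflux pumps and from 0.852 to 1.55 and 1.19 for all 47 genes, which turned the direction. It went from 0.0525 to 0.0962 and 0.0737 for bile and sterol exporters and from 2.32 to 4.21 and 3.25 for subfamily A. For organelle members of subfamily B it went from 0.940 to 1.69 and 1.32. The 0.940, with an SD of 0.0712, gave no clear direction as deposited. The ratio went from 1.15 to 2.10 and 1.61 for subfamily D, and from 0.444 to 0.809 and 0.623 for the translation factors. A common rescaling of each library makes these shifts. With a mean of at least 5 TPM, which left 22 members, 7 rose into P0 (21% of all genes), 8 fell into P14 (61.2%), 11 fell from E12.5 to A6m (65.9%) and 20 were called across ages (91.3%). From P0 to P14, 14 rose and 9 fell with scaling, and 12 rose and 4 fell with quantile normalization (20.2% and 19.5% of all genes). From E12.5 to A6m, 12 fell with scaling and 13 with quantile normalization (35.8% of all genes with either). With no filter 4 rose from P14 to A6m (2.23% of all genes). Leaving out 1 library gave 10 to 12 higher and 12 to 16 lower into P0, 4 to 6 and 14 to 20 into P14, 4 to 8 and 2 to 4 into A6m, 10 and 19 to 20 from E12.5 to A6m, and 31 to 32 across ages.

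Same-numbered libraries deviated together by correlations of only -0.064 to 0.072. These give no sign of pairing, but with 3 libraries per age they cannot exclude it. The labels do not say that a number marks a shared litter or day. With the replicate block 10 rose and 14 fell into P0, 5 and 17 into P14, 5 and 4 into A6m, and 10 and 20 from E12.5 to A6m, with 31 called across ages. The calls of Abcb10 from P0 to P14 (adjusted p = 0.0650) and of Abcc1 from P14 to A6m (adjusted p = 0.0747) were lost. The number of 3 libraries per age and an unknown depth limit what small differences and values near 1 TPM can show.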
